A study of Mus musculus with 3 samples.

Results

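Promoters of genes of the TGF-beta and BMP pathway were measured by chromatin immunoprecipitation on promoter arrays in C2C12 cells, a mouse myoblast line, arrested in G0. Members were the genes whose name on the array began with Bmp, Bmpr, Tgfb, Tgfbr, Smad, Gdf, Inhb, Acvr, Grem or Lefty in the patterns of the family, or was Inha, Nog, Chrd, Fst, Mstn or Nodal, with at least 3 probes in the promoter on every array. The rule matched 59 names, and 57 of them were tested among 16164 promoters in all. Gdf2, with 2 probes, and Tgfbrap1-AI597479, with 1 probe, were not tested. By role the tested members were 29 ligands, 10 receptors, 6 mediators, 9 inhibitors and 3 genes only named after the pathway (Tgfb1i1, Bmp2k and Tgfbrap1). Bmp1, which carries a BMP name, encodes a metalloprotease that cleaves procollagens and chordin, and it was counted with the ligands by its name.

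The antibody recognised PRDM2 on 2 arrays and histone H3 dimethylated at lysine 9 (H3K9me2) on 1 array. All cells had been kept in suspension culture with 2% methylcellulose before fixation in 1% formaldehyde, which was stopped with 0.125 M glycine. Immunoprecipitated (IP) DNA carried Cy5 and its own input DNA carried Cy3 on each of the 3 arrays, with no exchange of dyes, so input DNA was the background of each value and any dye effect remained in it. Separate cultures for the PRDM2 samples are not stated, so p-values rest only on the spread between these 2 arrays, which may be technical. The limma fit draws the spread at each promoter towards that of all promoters, so a p-value does not follow from the printed SD alone. The small number of arrays limits the precision. Genomic DNA gives no expression level, so neither the cell type nor the activity of any member was measured, and cycling cells were not analysed here.

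PRDM2 is a zinc finger protein of the PRDM family with a PR domain related to the SET domain of histone methyltransferases, and H3K9me2 is a mark commonly found at silent genes. Ligands of the TGF-beta superfamily bind pairs of type I and type II serine/threonine kinase receptors, and the activated receptors phosphorylate SMAD proteins that enter the nucleus with Smad4. Smad2 and Smad3 carry signals of TGF-betas, activins and nodal, and Smad1, Smad5 and Smad9 carry signals of BMPs. Noggin, chordin, follistatin and the lefty proteins hold the ligands or their receptors back outside the cell, and Smad6 and Smad7 block the pathway inside it. In muscle, myostatin restrains growth, TGF-beta inhibits differentiation, and BMP signals turn myoblasts such as C2C12 towards an osteoblast fate.

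Each promoter is a set of short probes whose base composition differs widely, and the probes themselves show how far values spread within one promoter. For this reason the highest and the lowest probe by PRDM2 mean of Inhbb, Tgfbr3 and Smad9, each among the highest promoters of its role, are printed 5′ to 3′, with CpG dinucleotides in capitals. In the array's own coordinates, of a genome build not given in the sources, the highest probes lie at chr1:121251847-121251891 (Inhbb), chr5:107530073-107530117 (Tgfbr3) and chr3:54843687-54843731 (Smad9).
Inhbb, highest probe: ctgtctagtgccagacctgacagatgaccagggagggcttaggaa
Inhbb, lowest probe: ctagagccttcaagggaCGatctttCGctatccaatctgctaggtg
Tgfbr3, highest probe: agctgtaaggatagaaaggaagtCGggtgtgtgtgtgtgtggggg
Tgfbr3, lowest probe: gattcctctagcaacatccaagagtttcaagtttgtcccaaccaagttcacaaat
Smad9, highest probe: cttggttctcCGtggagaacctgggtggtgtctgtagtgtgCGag
Smad9, lowest probe: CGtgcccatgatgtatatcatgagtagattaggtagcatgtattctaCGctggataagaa

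Values are log2 ratios of IP over input, with the median probe of each array at 0. The highest Inhbb probe lay at -2074 bp from the RefSeq start and read 6.20 on PRDM2 array 1, 4.34 on PRDM2 array 2 and 3.11 with the H3K9me2 antibody, while the lowest, at -500 bp, read -1.22, -2.10 and -2.86. The highest Smad9 probe lay 198.5 bp after the start and read 6.89, 4.26 and 3.58, and the lowest, at -490 bp, read -0.84, -1.70 and -2.19. The highest and lowest probes were chosen by the mean of the same 2 PRDM2 arrays, so agreement of the arrays at them is no separate evidence. The lowest probes of Inhbb and Smad9 had IP signal not well above background on PRDM2 array 2, so their values there are bounds. At Tgfbr3 the highest probe read 5.37, 3.59 and 2.38 and the lowest -1.18, -1.24 and -2.21. The highest Tgfbr3 probe, which holds a GT repeat, also stood out in input DNA, by 4.81 and 5.55 log2 above probes of like GC content on the PRDM2 arrays; whether this had a part in its ratio was not tested.

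The mean over a promoter's probes was called enriched when it lay above 0 in a limma fit on both PRDM2 arrays with a Benjamini-Hochberg adjusted p under 0.05 over all promoters. By this call 40 of the 57 members were enriched, against 46.9% of all promoters, and 0 were depleted, against 1.08% (at an unadjusted p under 0.05, 41 above and 2 below 0). The median PRDM2 value was 0.80 over the members and 0.50 over all promoters. On both PRDM2 arrays 48 members lay above 0, where 73.3% of all promoters did. With the median promoter taken as 0, 22 members were enriched and 3 depleted (Bmp10, Bmpr1b and Inhbc), against 17.2% and 13.0% of all promoters. With loess normalization 24 were enriched and 1 depleted (Bmp10), against 20.5% and 7.12%; Bmp4 and Gdf9 then passed as enriched, and Tgfb1, Tgfb1i1, Tgfbr2 and Bmpr1a were among those that no longer did. With intensities corrected by normexp instead, 0 members passed (11 above 0 at an unadjusted p under 0.05), as did 0.00% of all promoters.

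**Figure D1:**
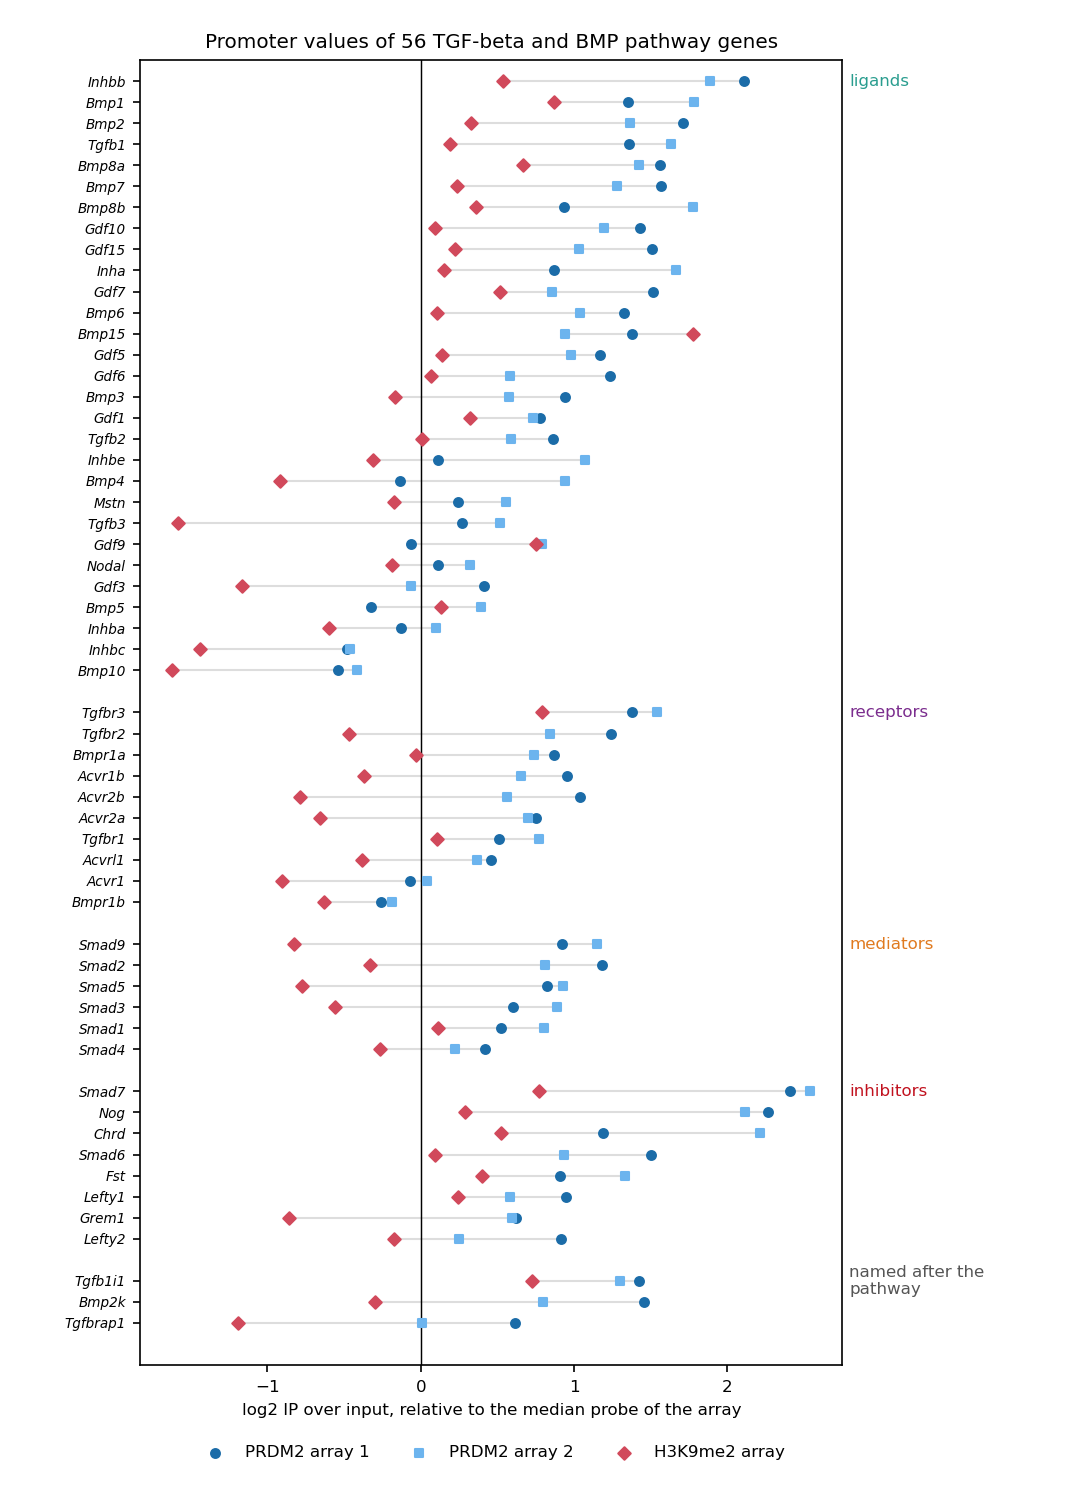
Promoter values of 56 of the 57 members (log2 IP over input relative to the median probe) on PRDM2 array 1 (circles), PRDM2 array 2 (squares) and the H3K9me2 array (diamonds), by role and in order of the PRDM2 mean. Smad7 was the highest at 2.41 and 2.54, Bmp10 the lowest by its mean at -0.54 and -0.41, and the H3K9me2 value lay above one or both PRDM2 values at Bmp15, Gdf9 and Bmp5.

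Among the ligands, 18 of 29 (62.1%) were enriched, against 63.0% of their like-GC promoters on average. Their median PRDM2 value was 0.91. Inhbb, the beta B subunit of activins and inhibins, was the highest, with 2.11 and 1.89 on the PRDM2 arrays and 0.54 on the H3K9me2 array. Its PRDM2 mean was 2.00 ± 0.16 (SD, n = 2; limma adjusted p = 6.17e-05). Bmp1 read 1.36 and 1.79 for PRDM2 and 0.87 for H3K9me2 (mean 1.57 ± 0.30 SD, n = 2; limma adjusted p = 0.000234). Bmp2, an inducer of bone formation, read 1.71, 1.37 and 0.33 (limma adjusted p = 0.000237). At these 3 promoters both PRDM2 arrays lay above the H3K9me2 array.

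Of the BMP-named ligands 8 of 11 were enriched, of the GDF ligands with myostatin 6 of 9, and of the activin, nodal and TGF-beta ligands 4 of 9. On average 64.7%, 59.5% and 64.5% of their like-GC promoters were enriched. The difference between these families was not tested. Tgfb1 was enriched with 1.36, 1.64 and 0.19 (limma adjusted p = 0.000257), although its mean fell to -0.04 once the trend on GC content was removed. Bmp4, a BMP of early mesoderm, was not called, with -0.14 on PRDM2 array 1 and 0.94 on array 2, a spread wider than its mean of 0.40 (limma adjusted p = 0.215; -0.10 with the median promoter as 0). With loess Bmp4 passed, with a mean of 0.505 (limma adjusted p = 0.04). Mstn, encoding myostatin, read 0.24, 0.56 and -0.18 and was not called (limma adjusted p = 0.128; -0.10 with the median promoter as 0). With probes of dim input on any of the 3 arrays left out, Mstn passed with a mean of 0.55 (limma adjusted p = 0.0429). All 18 Mstn probes had input well above background on both PRDM2 arrays, and 14 had it on the H3K9me2 array. The probes left out were thus dim on the H3K9me2 array only.

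At the low end, Bmp10, a ligand of the developing heart, read -0.54 and -0.41 for PRDM2 and -1.62 for H3K9me2. Inhbc, the beta C subunit, read -0.48, -0.46 and -1.44. Both members were below 0 on all 3 arrays, and neither passed as depleted (limma adjusted p = 0.0687 and 0.0699). Nodal, the ligand of left-right patterning, read 0.11, 0.32 and -0.19, and its mean of 0.22 turned negative with loess, with the median promoter as 0, with the GC trend removed and with the median over probes.

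Of the receptors, 7 of 10 (70%) were enriched, against 57.0% of their like-GC promoters on average. Their median PRDM2 value was 0.76. Tgfbr3, the co-receptor betaglycan, read 1.38 and 1.54 for PRDM2 and 0.79 for H3K9me2 (PRDM2 mean 1.46 ± 0.12 SD, n = 2; limma adjusted p = 0.00027). The type II receptor Tgfbr2 read 1.24, 0.84 and -0.47, a PRDM2 mean of 1.04 (limma adjusted p = 0.00196). With loess this mean was 0.02 (limma adjusted p = 0.947), and Tgfbr2 also lost its call with the median promoter as 0 (mean 0.54; limma adjusted p = 0.0537), with the GC trend removed (0.56; adjusted p = 0.0838) and with the median over probes (0.90; adjusted p = 0.0574). Bmpr1a, a type I receptor for BMPs, read 0.87, 0.74 and -0.03 (limma adjusted p = 0.00659), but its median over probes was -0.21, and it lost its call with loess (0.064) and with the median promoter as 0 (0.30). All 3 type II receptors among the members (Tgfbr2, Acvr2a and Acvr2b) and 3 of the 6 type I receptors were enriched, against 75.6% and 41.4% of their like-GC promoters. Bmpr2 was not among the names that the rule matched. Amhr2, a type II receptor outside the rule, was counted with the extracellular regulators below and was enriched with 1.66, 0.74 and 0.49. Acvr2b, which binds myostatin and activins, read 1.04, 0.57 and -0.79 (limma adjusted p = 0.00888), and its mean was -0.12 with the GC trend removed and 0.30 with the median promoter as 0, where it lost its call (adjusted p = 0.258). The highest Acvr2b probe lay on input not well above background on PRDM2 array 1. Its input was 4.11 and 3.89 log2 below probes of like GC content on the PRDM2 arrays. Without probes of dim input on any of the 3 arrays Acvr2b read 0.78 and 0.35 and still passed (limma adjusted p = 0.0385).

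The lowest receptor was Bmpr1b, another type I receptor for BMPs, with -0.26, -0.19 and -0.63 (limma adjusted p = 0.377). Acvr1, the type I receptor ALK2, read -0.07, 0.04 and -0.90, and Acvrl1, the endothelial receptor ALK1, read 0.46, 0.37 and -0.38. Neither Acvr1 nor Acvrl1 passed, and both changed sign with loess and with normexp.

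The SMAD mediators were enriched in 5 of 6 cases (83.3%), against 59.4% of their like-GC promoters on average. Their median PRDM2 value was 0.81. Smad9, a mediator of BMP signals, was the highest with 0.92, 1.15 and -0.83 (PRDM2 mean 1.04 ± 0.16 SD, n = 2; limma adjusted p = 0.00172). Smad2 read 1.18, 0.81 and -0.33 (limma adjusted p = 0.00244) and Smad5 read 0.83, 0.93 and -0.77 (limma adjusted p = 0.0041). The medians over probes were -0.25 at Smad2 and -0.09 at Smad5, and 6 of 20 probes at Smad2 and 5 of 17 at Smad5 lay above 0 on both PRDM2 arrays. With the median promoter as 0, Smad9, Smad2 and Smad5 lost their calls (limma adjusted p = 0.0606, 0.0706 and 0.155). Smad4, the shared partner of the other SMADs, read 0.42, 0.22 and -0.27 and was not called (limma adjusted p = 0.208; -0.18 with the median promoter as 0).

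The highest probes of Smad2, Smad3 and Smad4 had input not well above background on at least 1 PRDM2 array (at Smad3 array 1 alone). The input side of these ratios is only a bound there. With probes of dim input on any of the 3 arrays left out, Smad2 read 1.41 and 1.14, Smad3 0.44 and 0.67, and Smad4 0.12 and -0.02. At Smad2 19 of 20 probes had input well above background on each PRDM2 array, and 14 had it on the H3K9me2 array. Smad2 and Smad3 remained enriched without them (limma adjusted p = 1.91e-05 and 0.042), and Smad4 lay near 0. The highest probes of Bmp5 and Bmpr1b were dim in input in the same way.

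Among the inhibitors, 8 of 9 (88.9%) were enriched, against 72.2% of their like-GC promoters on average. Their median PRDM2 value was 1.12. Smad7, which blocks the activated receptors, had the highest value of any member, 2.41 and 2.54 for PRDM2 and 0.77 for H3K9me2 (limma adjusted p = 2.47e-05). Nog, encoding noggin, read 2.26, 2.11 and 0.29 (limma adjusted p = 3.65e-05). Chrd, encoding chordin, read 1.19 on PRDM2 array 1 and 2.21 on array 2, with 0.53 for H3K9me2 (PRDM2 mean 1.70 ± 0.72 SD, n = 2; limma adjusted p = 0.000378). The PRDM2 arrays lay close together at Smad7 and Nog and far apart at Chrd.

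Of the genes only named after the pathway, Tgfb1i1, which encodes the focal adhesion protein Hic-5, read 1.42, 1.30 and 0.72 (limma adjusted p = 0.00037), and its mean was -0.13 with loess. Bmp2k, encoding a kinase induced by BMP2, read 1.46, 0.80 and -0.30 (limma adjusted p = 0.00182). Tgfbrap1, encoding a protein that associates with TGF-beta receptors, read 0.61, 0.01 and -1.19 and was not called (limma adjusted p = 0.262).

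GC content moved with these values. Over the 57 promoters the Pearson correlation of mean probe GC content with the PRDM2 value was 0.78 on both arrays, and with the H3K9me2 value 0.46; over all promoters it was 0.56, 0.64 and 0.07. The members share arrays, and these correlations are descriptions only. The median GC content was 46.4% over the members and 43.9% over all promoters. Member probes of at least 60% GC (129 probes) had medians of 3.55, 3.63 and 1.59 on the arrays in the same order, and those under 40% GC had -0.36, -0.38 and -0.74. For all probes of tested promoters the corresponding medians were 3.22, 3.28 and 1.501, and -0.28, -0.33 and -0.65. The part of base composition in the enrichment was not tested beyond the comparison with promoters of like GC content that follows.

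**Figure D2:**
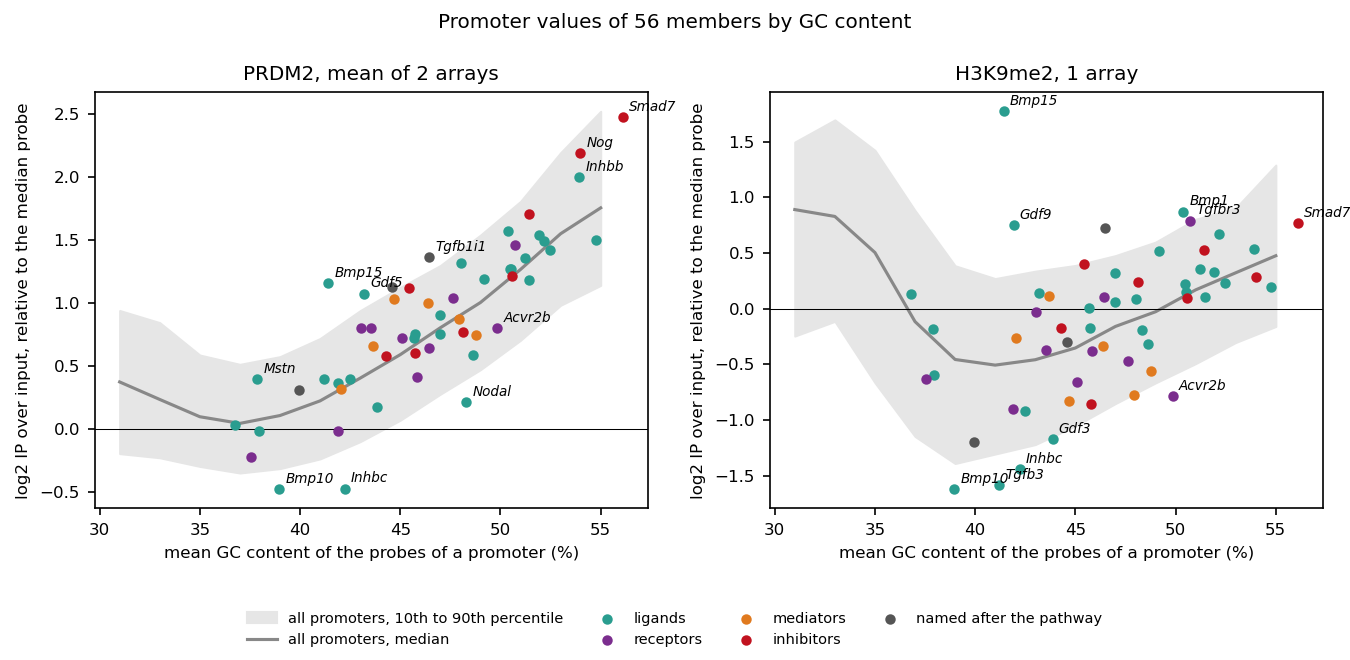
Promoter value (log2 IP over input relative to the median probe) against mean probe GC content (%) for 56 of the 57 members, with the median and the 10th to 90th percentile of all promoters in steps of GC content; left, mean of the 2 PRDM2 arrays, right, the H3K9me2 array. Smad7, Nog and Inhbb lie at the GC-rich end, and Bmp15 lies above the range of promoters of its GC content in both panels.

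Each member was placed among the 500 other promoters nearest to it in GC content. The median member stood at the percentile 57.6 by its PRDM2 mean, 0.06 log2 above the median of its like-GC promoters. On both PRDM2 arrays 23 members lay above that median and 13 lay below it. On average 62.1% of a member's like-GC promoters were called enriched, beside 70.2% of the members. After the trend on probe GC content had been removed from each array, 6 members were enriched (Bmp1, Bmp15, Gdf5, Nog, Smad7 and Tgfb1i1), against 13.4% of all promoters, and the median was 0.27 for the members and 0.25 for all promoters.

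The members highest against like-GC promoters on both PRDM2 arrays were Bmp15, Gdf5, Smad7, Tgfb1i1 and Nog. Bmp15, an oocyte growth factor on chromosome X, stood at percentiles 97.4 and 96.8 with values of 1.38 and 0.94. Gdf5, a factor of joint and skeletal development, stood at 90.8 and 95.0 with 1.17 and 0.98. Smad7 stood at 87.4 and 92.6, Tgfb1i1 at 87.4 and 94.0, and Nog at 84.4 and 86.4. GC content was matched less closely at Smad7 and Nog. Their like-GC promoters ranged from 52.0% to 60.2% GC for Smad7 (56.1%) and from 51.7% to 56.2% for Nog (54.0%). Those of Bmp15 ranged from 41.2% to 41.6% and those of Gdf5 from 43.0% to 43.4%. Against the like-GC medians on the PRDM2 arrays, Smad7 input lay at -0.84 and -0.97 log2 and its IP at -0.03 and -0.03. Nog input lay at -0.49 and -0.55 and its IP at 0.22 and 0.03. Bmp15 input lay at -0.88 and -0.59 and its IP at 0.23 and 0.22. Gdf5 had input at -0.01 and 0.18 and IP at 0.73 and 0.93. Tgfb1i1 had input at 0.72 and 0.65 and IP at 1.34 and 1.27. The part of input in these percentiles was not tested. At the other end, Inhbc stood at 1.8 and 3.2, Nodal at 4.4 and 8.4, and Bmp10 at 5.4 and 12.0. Acvrl1 stood at 22.0 and 26.4 and Acvr1 at 16.0 and 33.6. Tgfb1, enriched by its value, lay at 31.2 and 52.2, within the range of promoters of its GC content.

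**Figure D3:**
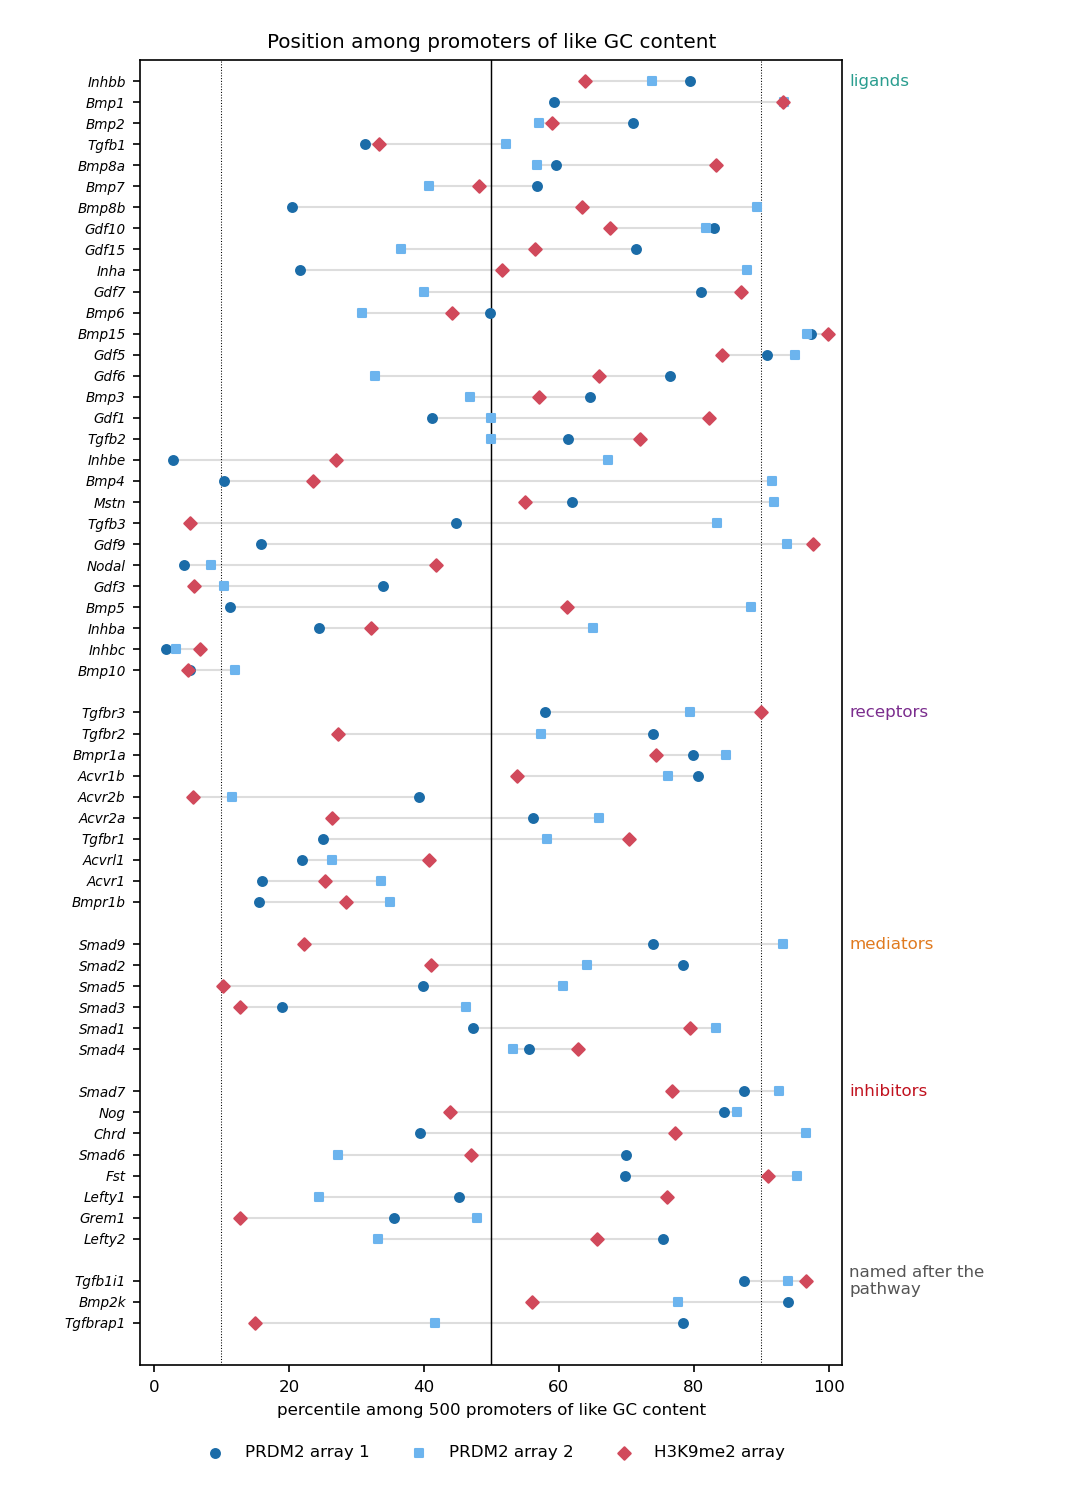
Percentile of 56 of the 57 members among the 500 other promoters nearest in GC content on PRDM2 array 1 (circles), PRDM2 array 2 (squares) and the H3K9me2 array (diamonds), by role; lines mark the percentiles 10, 50 and 90. Bmp15 and Gdf5 lie above the percentile 90 on both PRDM2 arrays, and Inhbc and Nodal below 10.

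On the single H3K9me2 array there was no replicate and no test, and members were counted at 1.5 times the median probe, a log2 value of 0.585. At or above this level were 7 of 57 members, against 11.0% of all promoters, and at or below its inverse were 14, against 29.5%. The median H3K9me2 value was 0.01 over the members and -0.23 over all promoters. By role it was 0.24 for inhibitors, 0.13 for ligands, -0.42 for receptors and -0.45 for mediators.

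Bmp15 had the highest H3K9me2 value of the members, 1.77, at the percentile 99.8 of its like-GC promoters. The 541 chromosome X promoters had medians of 0.70 and 0.61 on the PRDM2 arrays and 0.34 on the H3K9me2 array, and among them Bmp15 stood at the percentiles 85.6, 72.1 and 98.9. The next highest were Bmp1 at 0.87, Tgfbr3 at 0.79, Smad7 at 0.77 and Gdf9, another oocyte factor, at 0.75. Gdf9 rested on 5 probes and stood at the percentile 97.6. The lowest were Bmp10 at -1.62 and Tgfb3, a TGF-beta of palate and lung development, at -1.58.

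PRDM2 was compared with H3K9me2 in a limma fit of the 3 arrays, which takes the spread of the PRDM2 pair for the single H3K9me2 array too. The difference passed as higher for PRDM2 at 29 members, against 41.1% of all promoters, and as lower at 0, against 1.60% (at an unadjusted p under 0.05, 36 and 0). Both PRDM2 arrays lay above the H3K9me2 array at 54 members, against 85.2% of all promoters. By role the higher calls were 14 of 29 ligands, 4 of 10 receptors, 4 of 6 mediators, 5 of 9 inhibitors and 2 of the 3 genes named after the pathway. The direction rests on the scaling: with loess 3 members were higher (Acvr2b, Smad5 and Tgfb3) and 1 lower (Bmp15), against 2.90% and 8.53% of all promoters, and with normexp the members' median difference was -0.29 and 0 members passed (0 above and 8 below 0 at an unadjusted p under 0.05).

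The largest differences were at Tgfb3, Nog and Smad9. Tgfb3 rested on 7 probes, of which 0 lay above 0 on both PRDM2 arrays. Tgfb3 was not enriched for PRDM2 (0.27 and 0.52) but low for H3K9me2, and its difference was 1.98 ± 0.35 (SE; limma adjusted p = 0.0116). At Nog the difference was 1.90 ± 0.35 (SE; limma adjusted p = 0.0116) and at Smad9 1.86 ± 0.35 (SE; limma adjusted p = 0.0119). Bmp15, Gdf9 and Bmp5 had H3K9me2 above the PRDM2 mean, with differences of -0.61, -0.39 and -0.10 (PRDM2 minus H3K9me2), and none of these 3 passed (limma adjusted p = 0.168, 0.421 and 0.83). At Bmp5 the difference was 0.32 with normexp. Array pairs gave close counts: with PRDM2 array 1 alone 42 members exceeded H3K9me2 by 1.5 times, against 71.6% of all promoters, and with PRDM2 array 2 alone 43, against 61.6%. PRDM2 array 2 and the H3K9me2 array shared a scan day and PRDM2 array 1 had another, so the latter count is the one within a scan day. In the other direction Gdf9 alone passed 1.5 times with array 1 (3.30% of all promoters) and Bmp15 alone with array 2 (4.23%).

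Within promoters the members' PRDM2 medians were highest in the stretches next to the start of transcription. By exact matches of probes to the RefSeq windows (GRCm38.p6, 250 bp before to 50 bp after the start), 32 of the 37 members with a window and 7807 promoters in all could be placed. In the first 500 bp after the start the members' medians were 2.59 and 2.28 on the PRDM2 arrays and 1.00 on the H3K9me2 array (31 members), and those of all placed promoters were 1.25, 1.27 and 0.41 (7474 promoters). Probe GC content in this stretch was 57.04% for the members and 51.5% for all. In the 500 bp before the start the members' medians were 1.23, 1.78 and -0.01, and those of all placed promoters were 0.52, 0.48 and -0.135. Probe GC content there was 51.1% for the members and 45.1% for all. From 500 to 1000 bp upstream the members' medians were -0.02, -0.11 and -0.77, and those of all placed promoters were 0.07, -0.05 and -0.32. The PRDM2 medians of both sets thus lay near the median probe there. The values did not fall off evenly with distance. In the farthest upstream stretch, 2000 to 2500 bp before the start (23 members), the members' medians were 0.90, 0.15 and 0.12, with an upper quartile of 2.31 on PRDM2 array 1, and those of all placed promoters were 0.06, -0.06 and -0.16. From 500 to 1000 bp after the start the members' medians were 0.51, 1.21 and 0.07, and those of all placed promoters were 0.29, 0.20 and -0.28.

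**Figure D4:**
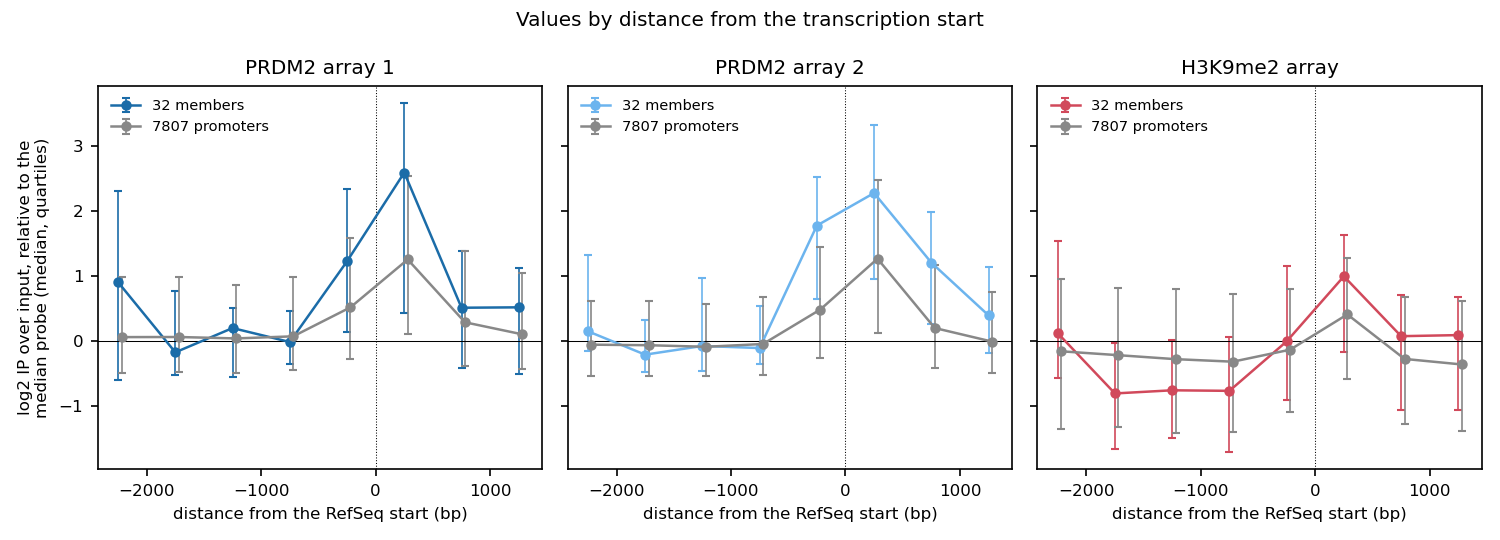
Median and quartiles of the promoter values (log2 IP over input relative to the median probe) in bins of 500 bp by distance from the RefSeq start (bp), for 32 members (colour) and 7807 promoters (grey) on each array. The members peak in the bin after the start at 2.59, 2.28 and 1.00, above all placed promoters at 1.25, 1.27 and 0.41.

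Probes above the 90th percentile on both PRDM2 arrays made up 77 of 933 member probes, or 8.25%, against 4.76% of all probes. At least 60% GC was found in 129 of the 933 member probes and in 20244 of 230945 probes of all tested promoters. The part of GC content in the share of high probes was not tested. Of these 77 probes 46 could be placed, and 32 of the 46 (69.6%) lay within 500 bp of the start, where 30.1% of all placed member probes lay; over all promoters the shares were 63.8% and 31.1%. High probes also lay farther out, among them the highest probes of Inhbb at -2074 bp, Gdf15 at 1288 bp and Acvr1b at 1108 bp. Input at the Acvr1b probe lay 3.485 and 4.159 log2 above probes of like GC content on the PRDM2 arrays. It lay at -0.82 and -0.63 at the Inhbb probe and at -0.40 and -0.48 at the Gdf15 probe. The part of input in these ratios was not tested. Of the 77 probes 56 (72.7%) had at least 60% GC, against 63.9% of the high probes of all promoters. Another 5 had under 50%, and these lay at Bmp15, Fst, Inhba, Mstn and Nog. From 40 to 50% GC the shares were 5.2% and 13.5%, and under 40% they were 1.3% and 4.55%. Input at the 5 probes against like-GC probes was 3.36 and 3.99 log2 (Bmp15), 1.13 and 1.67 (Mstn), 0.45 and 0.67 (Fst), 0.48 and 0.58 (Inhba), and -0.84 and -0.88 (Nog). At Acvr2a 4 neighbouring probes, from -343.5 to 210.5 bp, read between 4.51 and 5.80 on PRDM2 array 1 and between 3.29 and 5.67 on array 2, with GC contents of 62.2% to 75.6%. At Mstn the highest probe lay at -917.5 bp and read 4.75, 4.19 and 2.41 at 48.9% GC. At Bmp4 the arrays parted: its highest probe, 913.0 bp after the start, read 1.63 on PRDM2 array 1 and 4.33 on array 2. No probe elsewhere on the array was identical to a member probe, and no pair of members shared a stretch of 25 nt.

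**Figure D5:**
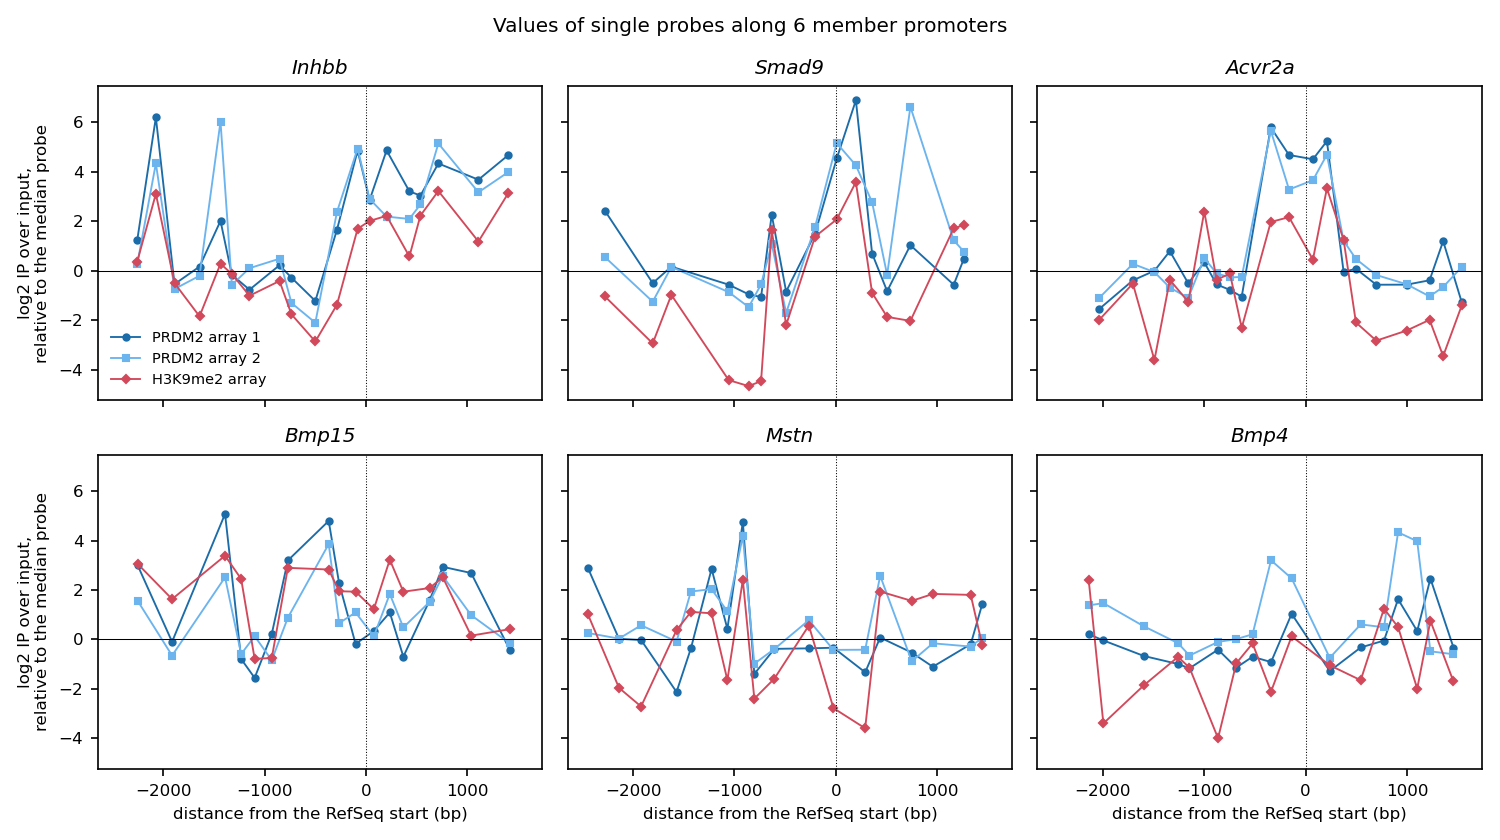
Values of single probes (log2 IP over input relative to the median probe) by distance from the RefSeq start (bp) at 6 members on PRDM2 array 1 (circles), PRDM2 array 2 (squares) and the H3K9me2 array (diamonds). At Smad9 and Acvr2a the high probes cluster at the start, at Inhbb they extend beyond 1000 bp after it, and at Bmp4 array 2 exceeds array 1 at several probes.

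The promoter windows of 4 members, each among the highest placed promoters of its role, are printed in RefSeq's sequence on the strand of the gene. Matches to SMAD motifs are in capitals. Each window holds only 1 or 2 of the probes averaged into the promoter value. Inhbb (chr1:119422199-119422498, minus strand) has 64.3% GC, and the 1 probe inside read 4.86, 4.94 and 1.70. Tgfbr2 (chr9:116175314-116175613, minus strand) has 59.0% GC, and the 2 probes inside averaged -0.15, 0.16 and -2.52, while its highest probe lay 405.5 bp after the start. Smad9 (chr3:54755332-54755631, plus strand) has 73.7% GC, and the 2 probes inside averaged 3.02, 3.47 and 1.73. Chrd (chr16:20732877-20733176, plus strand) has 78.3% GC, and the 1 probe inside read 3.09, 4.58 and 1.70. Of these windows that of Tgfbr2, the lowest in GC content, had the lowest values.
Inhbb window: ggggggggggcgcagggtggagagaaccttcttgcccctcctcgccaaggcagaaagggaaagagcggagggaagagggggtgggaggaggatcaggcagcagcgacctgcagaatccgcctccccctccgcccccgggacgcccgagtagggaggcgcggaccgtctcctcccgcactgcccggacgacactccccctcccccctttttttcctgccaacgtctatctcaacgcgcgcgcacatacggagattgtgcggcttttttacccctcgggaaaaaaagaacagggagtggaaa
Tgfbr2 window: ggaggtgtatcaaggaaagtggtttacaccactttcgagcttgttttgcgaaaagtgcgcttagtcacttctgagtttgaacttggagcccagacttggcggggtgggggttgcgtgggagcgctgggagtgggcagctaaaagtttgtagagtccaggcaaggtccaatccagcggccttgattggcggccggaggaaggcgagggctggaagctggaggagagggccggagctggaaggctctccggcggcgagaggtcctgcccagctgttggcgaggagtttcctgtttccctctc
Smad9 window: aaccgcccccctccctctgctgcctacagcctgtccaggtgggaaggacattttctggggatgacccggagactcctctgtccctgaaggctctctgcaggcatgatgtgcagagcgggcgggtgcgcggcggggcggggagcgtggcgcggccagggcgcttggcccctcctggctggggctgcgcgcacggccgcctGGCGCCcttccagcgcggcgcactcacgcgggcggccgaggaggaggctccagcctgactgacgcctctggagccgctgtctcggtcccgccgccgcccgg
Chrd window: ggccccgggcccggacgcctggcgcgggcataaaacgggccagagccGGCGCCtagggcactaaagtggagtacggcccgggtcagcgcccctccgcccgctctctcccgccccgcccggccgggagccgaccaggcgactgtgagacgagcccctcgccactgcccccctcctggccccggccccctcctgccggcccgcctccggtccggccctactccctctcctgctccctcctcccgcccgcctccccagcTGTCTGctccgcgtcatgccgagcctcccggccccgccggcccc

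SMAD motifs were searched on both strands in the windows. GGCGCC, the GC-rich SMAD element, which reads the same on both strands, was found for 11 of the 37 members with a window and for 13.4% of all genes with a window. The part of GC content in these shares was not tested. CAGACA, the CAGA box, was in 8 of 37 members and 23.6% of all genes; the Chrd match is on the reverse strand. The palindrome GTCTAGAC was in 1 member, Smad6, and in 0.248% of all genes. It shares the letters AGAC with the CAGA box, and a match is a description of the sequence only.

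Other genes of the pathway, from a list of 75 names of extracellular regulators, intracellular regulators and target genes, gave 64 tested promoters of 63 names. Of these 38 were enriched, or 59.4%, against 46.9% of all promoters and 58.3% of their like-GC promoters, so the share lay near that of promoters of their GC content. None was depleted (0, against 1.08% of all promoters), and 37 were higher for PRDM2 than for H3K9me2, against 41.1%. Their median PRDM2 value was 0.71, and with the GC trend removed 7 were enriched and 1 depleted, against 13.4% and 0.928% of all promoters. The extracellular regulators, a group that also held the ligand Amh and its receptor Amhr2, were enriched in 17 of 30 cases (56.7%, against 55.8% of their like-GC promoters). The highest were Fstl3, a follistatin relative (2.83, 1.75 and 0.71), and Ltbp3, which binds latent TGF-beta (1.91, 1.80 and 0.29). Of the intracellular regulators 11 of 18 were enriched (61.1%, against 64.7%), led by the SMAD phosphatase Ppm1a (1.55, 1.34 and 0.57) and the corepressor Skil (1.56, 1.33 and 0.12). Of the target genes 10 of 16 were enriched (62.5%, against 55.6%), led by Hey1 (1.51, 1.59 and -0.12) and Junb (1.30, 1.38 and 0.18). Id1, a direct BMP target and inhibitor of myogenic factors, read 1.06, 0.66 and 0.08 and was enriched (limma adjusted p = 0.00563).

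Of the 933 member probes, IP signal was well above background for 73.9% to 82.3% and input for 94.8% to 99.5%, close to the shares over all probes. Relative to negative-control spots the IP signal reached 1.47 and 1.39 times on the PRDM2 arrays and 6.44 times with H3K9me2, and the part of this gap in the difference between antibodies was not tested. Over the members PRDM2 arrays 1 and 2 correlated with r of 0.76, and over all promoters 0.73. Neighbouring members were Lefty2 and Lefty1 (38.4 kb apart), Inhbe and Inhbc (15.1 kb) and Acvrl1 and Acvr1b (41.9 kb), and their probes did not overlap.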

How the data were processed

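The 2-colour Agilent arrays carried probes of 45 to 60 nt from mouse promoters. Per the file headers, Feature Extraction 10.5.1.1 of Agilent gave the processed intensity of each spot by background subtraction, detrending and linear dye normalization; the raw mean and background intensity were deposited beside it. The log10 ratio in the deposited files served only as a check. The authors' value table was on a log2 scale, a scale found by comparison with the scanner files (r of 0.965, 0.940 and 0.972; medians 0.12, 0.10 and 0.28). Its tool, and the genome build of the array's coordinates, are not given in the sources.

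Log2 ratios of red over green processed signal were taken without control and outlier spots (773, 107 and 218 on the 3 arrays), centred on the median probe, and averaged over probes of 1 gene name less than 10000 bp apart (at least 3 probes). PRDM2 was tested against 0 and against H3K9me2 with limma 3.58.1 (lmFit, eBayes; R 4.3.3), Benjamini-Hochberg adjusted over all promoters at 0.05; the fit was tested on simulated data. Alternatives were normexp (offset 50), loess, the median promoter as 0, removal of the GC trend, the median over probes, bright input only, the value table, a variance trend and leaving out each PRDM2 array. Named members were the 3 highest and the lowest of each role, the extremes by like-GC percentile, H3K9me2 and difference, and Mstn, Tgfb1, Bmp2, Bmp4, Acvr2b, Smad4, Smad7 and Nog. A member and a set of probes that these rules name are not reported here. Members, lists and tests were chosen with earlier results of these data known. Acvr2a and the 5 probes under 50% GC were singled out after their values were seen.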

Additional observations from a re-analysis of the deposited data

How the results depend on the processing

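The value with the GC trend removed, the median promoter as 0 or another background correction differed from the reported one for many members, and the cause was not tested. The count of enriched members, reported as 40, was 0 with normexp, 24 with loess and 22 with the median promoter as 0. The shares of all promoters there were 0.00%, 20.5% and 17.2%. It was 6 with the GC trend removed and 9 with the median over probes, against 13.4% and 5.69% of all promoters. Bright input, the value table and the variance trend gave 42, 38 and 39, against 48.9%, 41.1% and 47.6% of all promoters. A single PRDM2 array, which allows no test and was counted at 1.5 times the median probe, gave 39 with either array. The count of depleted members, reported as 0, was 1 with loess (Bmp10) and 3 with the median promoter as 0. The count of members higher for PRDM2 than for H3K9me2, reported as 29, was 0 with normexp, with the median promoter as 0 and with the median over probes (0, 10 and 12 by limma at an unadjusted p under 0.05). The shares of all promoters there were 0%, 0.736% and 0%. It was 3 with loess, 1 with the GC trend removed (Tgfb3) and 14 with the deposited value table, against 2.90%, 2.35% and 22.7% of all promoters. A single PRDM2 array against H3K9me2 gave 42 to 43. The count of lower members, reported as 0, was 1 with loess and 1 with either PRDM2 array alone (Gdf9 with array 1, Bmp15 with array 2). The count of members past 1.5 times for H3K9me2, reported as 7, was 29 with normexp, 12 with the median promoter as 0, 4 with the GC trend removed, 13 with the median over probes and 11 with the value table. The share of all promoters was not counted for these H3K9me2 alternatives, so they cannot tell a change of the members from one of the whole array.

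Among the named members the PRDM2 value changed sign as follows. With the GC trend removed it was -0.12 at Acvr2b, -0.44 at Nodal, -0.034 at Smad4 and -0.037 at Tgfb1. With loess it was 0.10 at Acvr1, -0.40 at Acvrl1, -0.14 at Nodal, -0.13 at Tgfb1i1 and -0.18 at Tgfb3. With the median over probes it was -0.24 at Bmp5, -0.21 at Bmpr1a, -0.10 at Mstn, -0.065 at Nodal, -0.25 at Smad2, -0.23 at Smad4, -0.093 at Smad5, -0.24 at Tgfb3 and -0.23 at Tgfbrap1. With the median promoter as 0 it was -0.090 at Acvrl1, -0.10 at Bmp4, -0.47 at Bmp5, -0.14 at Gdf9, -0.10 at Mstn, -0.29 at Nodal, -0.18 at Smad4, -0.11 at Tgfb3 and -0.19 at Tgfbrap1. With normexp it was 0.061 at Acvr1 and -0.38 at Acvrl1, and the difference of PRDM2 and H3K9me2 at Bmp5 was 0.32. The value at Bmp5 was -0.21 with bright input only and -0.17 in the value table. With 20 classes of GC content in place of the 500 nearest promoters, percentiles moved by a median of 1.37 points and by at most 20.3. No paired analysis was possible because the H3K9me2 group has 1 array and so shares only 1 replicate number with PRDM2. Input that was not well above background limits the ratios of single probes, and 2 PRDM2 arrays and 1 H3K9me2 array limit each comparison.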
